A study of Mus musculus with 14 samples.

Results

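Genes that mark or control the epithelial and mesenchymal states of a cell were followed through the accessible chromatin of mouse small cell lung cancer lines. The 5 epithelial genes were Cdh1, Esrp1, Esrp2, Ovol1 and Grhl2, and the 5 mesenchymal genes were Cdh2, Zeb1, Zeb2, Snai2 and Vim. These 10 of 21883 protein-coding genes were chosen after the difference in Cdh1 between the genotypes was known. Differences between the genotypes at these 10 genes are therefore given as a description, with no test. Each gene was taken with 10 kb on either side, and peaks of all libraries that overlapped by 1 bp or more were merged. This gave 112 of 177684 merged regions, of which 72 were open, that is, had a peak in both libraries, in at least 1 line.

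The study profiled 7 cell lines with 2 ATAC-seq libraries each, 14 in all. In this assay a transposase cuts and tags DNA that is not packed in nucleosomes. Its title asks which mechanisms of metastasis depend on the transcription factor NFIB. Genotype RPR2;Nfibf/f, written Nfibf/f here, had 4 lines: liver metastases gave 1398M1 and 1399M4, and lung tumors gave 1398P2 and 1399P1. The 3 lines of genotype RPR2 were 1373M1 from a liver metastasis and 12N1G and N2N1G from lymph node metastases. By the usual naming of these mice, RPR2 is the loss of Rb1, Trp53 and Rbl2, which all 7 lines share, and Nfibf/f denotes floxed Nfib. How recombination was driven, whether Nfib was deleted in these lines and how many clones a line holds: not given in the sources used here. Genotype and tissue were crossed only in liver metastases, so elsewhere the 2 cannot be told apart. Whether a line's 2 libraries were grown separately is not stated, and 1398M1 and 1398P2, like 1399M4 and 1399P1, were counted as separate lines although their names share a number. The overlap of peaks (Jaccard index, shared over total) was 0.784 to 0.803 between libraries of 12N1G and N2N1G. It was 0.839 and 0.83 within these lines, and 0.535 to 0.556 between either and 1373M1. They were counted as separate lines, so SDs and p-values may rest on fewer than 3 independent RPR2 lines.

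Epithelial cells are held together by E-cadherin, the product of Cdh1. ESRP1 and ESRP2 are splicing factors of the epithelial state, and GRHL2 and OVOL1 are transcription factors that keep it. ZEB1, ZEB2 and SNAI2 are transcriptional repressors that bind E-box sequences in epithelial promoters such as that of Cdh1, and N-cadherin, the product of Cdh2, and vimentin mark mesenchymal cells. The miR-200 family of microRNAs represses Zeb1 and Zeb2, and the ZEB factors repress the miR-200 genes in turn. Small cell lung cancer is a neuroendocrine tumor that grows with both epithelial and mesenchymal features.

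The mature 3p arms of the 5 mouse miR-200 genes are shown because peaks at their loci were present in some lines and missing in others. The sequences are from RefSeq (GRCm38.p6), and the capitals mark the seed, bases 2 to 8.
mmu-miR-141-3p: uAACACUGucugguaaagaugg
mmu-miR-200a-3p: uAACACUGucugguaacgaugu
mmu-miR-200b-3p: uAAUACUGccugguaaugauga
mmu-miR-200c-3p: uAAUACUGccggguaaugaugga
mmu-miR-429-3p: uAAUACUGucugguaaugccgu
The arms of miR-200b, miR-200c and miR-429 share the seed AAUACUG, and those of miR-141 and miR-200a share AACACUG. Mir200b, Mir200a and Mir429 lie together on chromosome 4 and Mir200c and Mir141 on chromosome 6, all on the minus strand.

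Zeb2, the mesenchymal gene whose peaks varied most, has several starts in the RefSeq table. The windows of its outermost and innermost start are shown to compare their CpG dinucleotides, which are in capitals (RefSeq, GRCm38.p6, 5′ to 3′ on the minus strand of chromosome 2).
Zeb2 outer start, chr2:45117393-45117692: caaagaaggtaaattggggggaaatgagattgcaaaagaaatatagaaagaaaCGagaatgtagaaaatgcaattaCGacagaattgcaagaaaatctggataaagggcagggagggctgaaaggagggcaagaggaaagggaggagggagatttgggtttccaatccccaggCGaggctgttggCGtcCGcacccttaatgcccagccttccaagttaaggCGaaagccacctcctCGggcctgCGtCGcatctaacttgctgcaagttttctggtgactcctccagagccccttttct
Zeb2 inner start, chr2:45110228-45110527: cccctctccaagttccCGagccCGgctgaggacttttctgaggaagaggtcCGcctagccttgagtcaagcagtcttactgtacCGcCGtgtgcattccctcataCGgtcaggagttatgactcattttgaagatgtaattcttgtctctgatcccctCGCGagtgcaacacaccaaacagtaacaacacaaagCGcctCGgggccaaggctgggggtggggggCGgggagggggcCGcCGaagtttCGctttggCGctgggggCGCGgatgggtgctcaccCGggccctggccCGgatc
The outer window holds 9 CpG and the inner 19, against a median of 7 over the 32817 windows of the table.

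Libraries held 65009 to 84220 peaks in 13 of 14 cases, and replicate 2 of 1398P2 held 33558. The genome-wide background recovered from the lists, which follows sequencing depth, was 0.507 fragments per bp in that library and 0.632 to 1.13 in the other 13, so a missing peak there says less. Peaks at the start of Chga, Chgb, Syp, Uchl1 and Calca, which mark neuroendocrine cells, were present in 14 of 14 libraries. No library had a start peak at the leukocyte genes Ptprc, Cd3e and Lyz2, the hepatocyte genes Alb, Afp and Apoa1 or the lung epithelial genes Sftpb and Nkx2-1. Hnf4a, of liver and gut, had one in 4 of 8 Nfibf/f and 0 of 6 RPR2 libraries, and Krt5, of basal cells, in 0 of 8 and 2 of 6. Of the fibroblast genes with a known start, Pdgfra had none and Col1a2 had one in 1 of 8 Nfibf/f and 3 of 6 RPR2 libraries. Of the endothelial genes, Kdr had one in 7 of 8 Nfibf/f and 6 of 6 RPR2 libraries, and Tek in 1 of 8 and 5 of 6. The endothelial gene Cdh5 had 1.47 ± 0.43 scaled regions in Nfibf/f and 5.03 ± 0.52 in RPR2 lines, and Pecam1 3.59 ± 0.92 and 5.36 ± 0.31. The 4 endothelial markers averaged 2.13 to 3.2 regions in Nfibf/f and 4.14 to 4.25 in RPR2 lines. Their part in the values of Vim and the other mesenchymal genes was not tested.

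A start peak was a peak of a library that overlapped the window from 250 bp before to 50 bp past the gene start. Its strength is given as the fold percentile, the percent of the peaks of the same library with an equal or lower fold over local background. Because strong neighbouring signal raises the local background and lowers the fold, the height is given as well. The height is the number of fragments at the highest summit of the peak, in multiples of the genome-wide background of the library. This summit can lie outside the start window. Neither percentile nor height is normalised for the share of fragments in peaks.

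Cdh1 (GRCm38 chromosome 8, 106603350 to 106670247) had a start peak in 8 of 8 Nfibf/f and 4 of 6 RPR2 libraries. Its fold percentiles were 23.5 and 24.1 in 1398M1, 81.5 and 87.4 in 1399M4, 62.8 and 74 in 1398P2, and 84.7 and 85.1 in 1399P1. They were 14.2 and 31.7 in 12N1G and 31.7 and 19 in N2N1G, and 1373M1 had no start peak in either library. By this rank the libraries of 1398M1 lay among those of the RPR2 lines. By height they did not, and all 8 Nfibf/f libraries stood above the RPR2 libraries that had a peak. How often starts of other genes separate in this way was not computed. Cdh1 was chosen on this contrast, and the 2 libraries of a line are not separate lines, so the separation is read no further. Nfibf/f libraries had heights of 34.6 to 174, against 8.71 to 14.4 in those 4 of the RPR2 libraries that had a peak. In fragments at the summit this was 20 to 174 against 7 to 10. In bulk libraries, fewer cells with an open site and a less open site in every cell cannot be told apart.

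**Figure D1:**
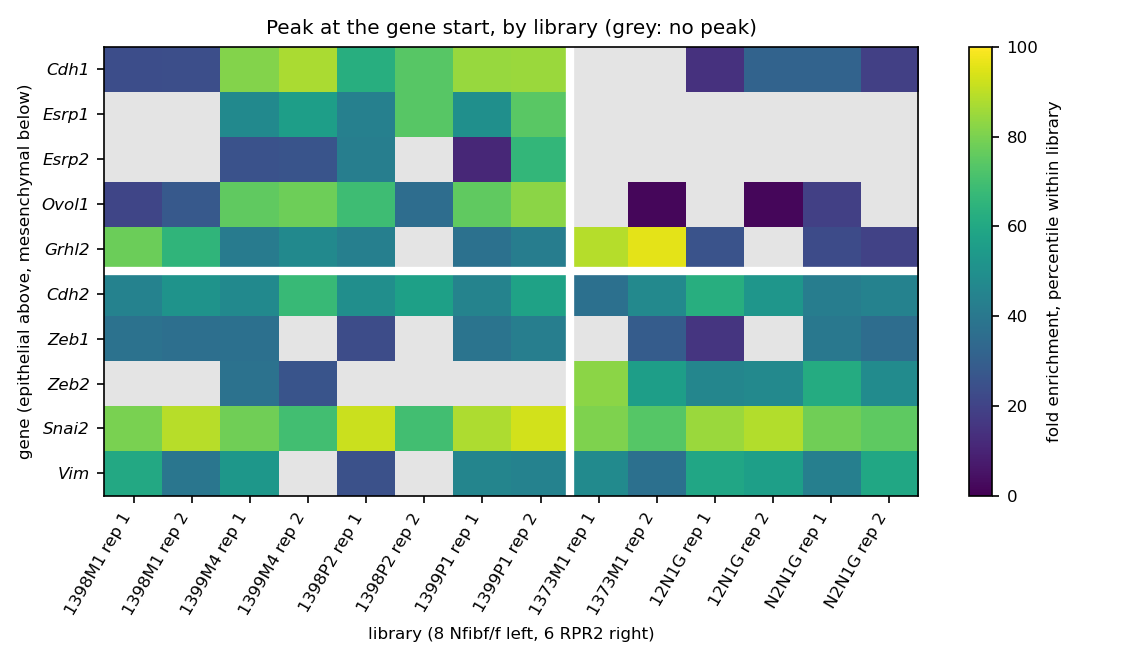
Fold percentile of the peak at the start of each of the 10 genes (rows) in each of the 14 libraries (columns), with grey where the library has no peak there. Esrp1 and Esrp2 are grey in the 2 libraries of 1398M1 and in all 6 RPR2 libraries, and Snai2 and Cdh2 are filled in all 14.

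The number of open regions followed Cdh1 beyond its start. Across the gene and its flanks, 12 regions were open in at least 1 line. The mean of both libraries was 8 regions for 1398M1, 11 for 1399M4, 8 for 1398P2 and 9.5 for 1399P1, against 5 in 1373M1, 3.5 in 12N1G and 5 in N2N1G. Every Nfibf/f line was above every RPR2 line. On numbers scaled as below, this held for 8.79% of all genes tested. After each line was scaled by its total over all genes, Cdh1 had 9.14 ± 1.19 regions in Nfibf/f lines and 4.53 ± 0.89 in RPR2 lines (SD, n = 4 and 3), a difference of 4.61. In liver metastases alone the scaled numbers were 7.9 and 10.4 in 1398M1 and 1399M4 and 5.05 in 1373M1. With the same number of peaks taken from each library, the strongest by p, the difference was 2.47 (3.98 against 1.51 regions).

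The order of the lines at Cdh1 ran from 1399M4 through 1398P2, 1399P1 and 1398M1 to 1373M1, N2N1G and 12N1G on the scaled number. Neighbours among the Nfibf/f lines in this order were 0.473 to 1.5 scaled regions apart, and neighbours among the RPR2 lines 0.035 to 1.52. The gap between 1398M1 and 1373M1 was 2.85. The libraries of 1398P2 had 11 and 5 regions, so the place of this line within its genotype is not resolved.

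Of the 12 Cdh1 regions, 2 were open in all 7 lines. They lay inside the gene (106636662 to 106637705) and past its end (106672101 to 106673306). No RPR2 library had a peak in 5 of the 12. The most widespread of them (106642213 to 106642554, centred 39033 bp past the start) had a peak in 7 of 8 Nfibf/f libraries, missing replicate 2 of 1398P2. Its fold percentiles were 74.9 and 16.6 in 1398M1, 52.5 and 27 in 1399M4, 8.43 in 1398P2, and 48.5 and 33.6 in 1399P1. The regions at 106635402 to 106636023 and at 106610987 to 106611350 each had a peak in 5 of 8 Nfibf/f libraries. The region at 106610987, centred 7818 bp past the start, had none of them in 1398M1. The region at 106608127 to 106608837, centred 5132 bp past the start, had a peak in 8 of 8 Nfibf/f libraries at percentiles of 47 to 83.5 and in 3 of 6 RPR2 libraries at 20.3 to 25.8.

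**Figure D2:**
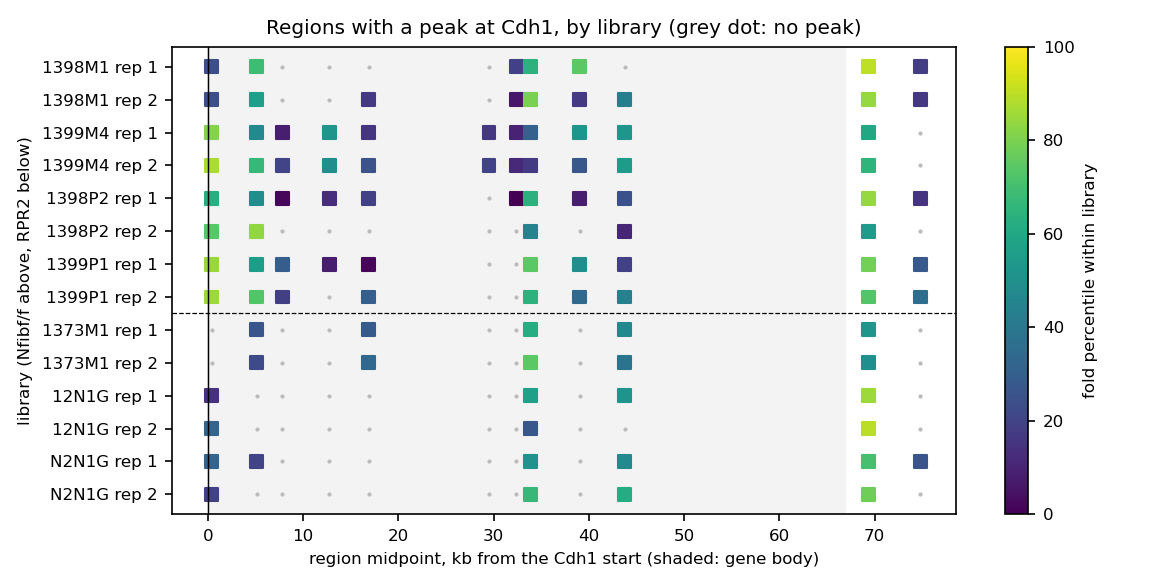
Regions of Cdh1 (x axis, distance of the region midpoint from the gene start in kb) in each library (rows, Nfibf/f above RPR2), coloured by fold percentile, with a grey dot where the library has no peak. The regions inside the gene and past its end described above are filled in all 14 libraries, and the one 39 kb past the start is filled in 7 Nfibf/f libraries and no RPR2 library.

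The splicing factor Esrp1 (chromosome 4, 11331933 to 11386783, minus strand) had a start peak in 6 of 8 Nfibf/f and 0 of 6 RPR2 libraries. The height was 178 and 160 in 1399M4, 151 and 63.1 in 1398P2 and 147 and 128 in 1399P1, with no start peak in 1398M1. A broad merged region over the start (11386385 to 11388525) nevertheless held a peak in all 14 libraries, and the peaks of 1398M1 and of the RPR2 lines in it lay outside the start window. Inside the gene, a region centred 33454 bp past the start (11353062 to 11353596) had peaks in the same 6 libraries and no other, at fold percentiles of 53.2 to 94.2. Scaled, 1398M1 had 1.98 regions, 1399M4 had 4.72, 1398P2 had 3.7 and 1399P1 had 2.64, against 2.02, 2 and 2.01 in 1373M1, 12N1G and N2N1G.

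Esrp2 (chromosome 8, 106130319 to 106137193, minus strand), its relative, lies 466157 bp from Cdh1. It had a start peak in 5 of 8 Nfibf/f and 0 of 6 RPR2 libraries. The height was 146 and 127 in 1399M4, 160 in replicate 1 of 1398P2, and 87.1 and 113 in 1399P1, and 1398M1 had no start peak. The peak with the height of 160 spanned 106134758 to 106137511. The peak with 113 ended at 106137164 and did not reach the start. These heights may thus belong to summits inside the gene. The number of regions did not separate the lines in this way and was 1.5 or 2 throughout. A region of 2754 bp over the start and into the gene (106134758 to 106137511) held a peak in all 14 libraries. Its fold percentiles were 5.34 and 6.42 in 1398M1 and 42.9 to 66.2 in the other Nfibf/f lines, against 3.54 to 20.3 in RPR2 lines.

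Ovol1 (chromosome 19, 5549137 to 5560575, minus strand), a zinc finger repressor that acts in epithelial differentiation, had a start peak in 8 of 8 Nfibf/f and 3 of 6 RPR2 libraries. The height was 14.6 and 12.1 in 1398M1, 177 and 166 in 1399M4, 59.1 and 15.8 in 1398P2, and 105 and 68.3 in 1399P1. It was 8.67 in replicate 2 of 1373M1, 7.21 in replicate 2 of 12N1G and 15.8 in replicate 1 of N2N1G. The libraries of 1398M1 and replicate 2 of 1398P2 thus lay within or beside the RPR2 range. A region past the gene end (5546012 to 5546916) had a peak in 7 of 8 Nfibf/f and 1 of 6 RPR2 libraries. The scaled number was 4.86 ± 0.59 in Nfibf/f and 3.69 ± 0.79 in RPR2 lines (SD, n = 4 and 3), and the groups overlapped.

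Grhl2 (chromosome 15, 37232821 to 37363569) encodes a factor that binds and activates Cdh1 in mouse epithelium. It had a start peak in 7 of 8 Nfibf/f and 5 of 6 RPR2 libraries. The height was 39.9 and 26.3 in 1398M1, 129 and 102 in 1399M4, 67 in replicate 1 of 1398P2 and 71 and 50.4 in 1399P1. In RPR2 libraries it was 72.2 and 85.3 in 1373M1, 9.96 in replicate 1 of 12N1G and 11.1 and 11.1 in N2N1G. The RPR2 liver line thus had a peak in the Grhl2 start window as high as several Nfibf/f libraries, while it had no Cdh1 start peak. Its peaks ended before the start itself, at 37232744 and 37232623, as did those of 1398M1 and N2N1G. Those of 1399M4, 1399P1, replicate 1 of 1398P2 and replicate 1 of 12N1G covered the start. These heights therefore compare different parts of the window. Inside Grhl2, a region centred 80385 bp past the start (37312828 to 37313585) had peaks in all 6 libraries of 1399M4, 1398P2 and 1399P1 and in no other. The regions at 37233815 to 37234724 and at 37342450 to 37343224 likewise had peaks in 6 of 8 Nfibf/f and 0 of 6 RPR2 libraries. In the other direction, the region at 37321020 to 37321677 had peaks in 4 of 4 lymph node libraries and in 0 of 8 Nfibf/f libraries. The scaled number was 5.92 ± 1.55 in Nfibf/f and 5.53 ± 0.49 in RPR2 lines.

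Among the mesenchymal genes, the starts of Cdh2 and Snai2 were open in all 14 libraries. At Cdh2 (chromosome 18, 16588877 to 16809246, minus strand) the fold percentile was 44.5 to 67.2 in Nfibf/f and 37.1 to 62.6 in RPR2 libraries, and the height 33.5 to 126 and 95.9 to 134. The scaled numbers of regions were 6.42 for 1398M1, 4.72 for 1399M4, 3.7 for 1398P2 and 3.53 for 1399P1, against 5.56 in 1373M1, 2 in 12N1G and 4.02 in N2N1G. The lines of each genotype thus spread over most of the whole range. A region inside the gene (16649092 to 16650702) had a peak in 8 of 8 Nfibf/f and 2 of 6 RPR2 libraries, both of 1373M1. Another (16738810 to 16739324) had one in 6 of 8 and 1 of 6.

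Snai2 (chromosome 16, 14705852 to 14709395) had 1 region, at its start, in every library, at fold percentiles of 69.8 to 93.1 in Nfibf/f and 73.5 to 88.5 in RPR2 libraries. Vim (chromosome 2, 13574311 to 13582826) had a start peak in 6 of 8 Nfibf/f and 6 of 6 RPR2 libraries. The height at Vim was 12.3 to 26.6 in Nfibf/f and 33.3 to 46.4 in RPR2 libraries, with no overlap between the libraries that had a peak. As at Cdh1, the share of all starts with such a separation was not computed. Replicate 2 of 1399M4 and replicate 2 of 1398P2 had none in the start window. The merged region over the start (13573535 to 13575327) held a peak in 7 of 8 Nfibf/f and 6 of 6 RPR2 libraries. In replicate 2 of 1399M4 that peak, with a height of 20.4, lay outside the window. A second Vim region (13575444 to 13575770) had a peak in 0 of 8 Nfibf/f and 3 of 6 RPR2 libraries.

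Zeb1 (chromosome 18, 5591327 to 5775468) had a start peak in 6 of 8 Nfibf/f and 4 of 6 RPR2 libraries, and a broad region over and past the start (5591212 to 5594240) held a peak in all 14. Scaled, 1398M1 had 3.95 regions, 1399M4 had 4.72, 1398P2 had 6.17 and 1399P1 had 5.73, against 4.04, 4 and 3.51 in 1373M1, 12N1G and N2N1G. Inside the gene, the region at 5735925 to 5736657 had a peak in 5 of 8 Nfibf/f and 0 of 6 RPR2 libraries, and that at 5663610 to 5664144 in 6 of 8 and 1 of 6. A region past the gene end (5784897 to 5785632) had one in 4 of 8 and 6 of 6.

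Zeb2 spans 44983512 to 45117442 on chromosome 2. Its outermost start, at 45117442, had a peak in 2 of 8 Nfibf/f libraries, both of 1399M4, and in 6 of 6 RPR2 libraries. The fold percentiles were 37.7 and 26 in 1399M4, against 82.5 and 56.2 in 1373M1, 46 and 46.9 in 12N1G and 61.4 and 48.3 in N2N1G. No library of the lung tumor lines had a peak there. An inner start, whose window spans 45110228 to 45110527, had a peak in 7 of 8 Nfibf/f and 6 of 6 RPR2 libraries. Of the windows printed above, the outer thus had a peak in every RPR2 line and in 1 Nfibf/f line. Heights at the inner start were 11.2 to 33.4 in Nfibf/f libraries with a peak and 23.7 to 65.1 in RPR2 libraries, and these ranges overlap.

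**Figure D3:**
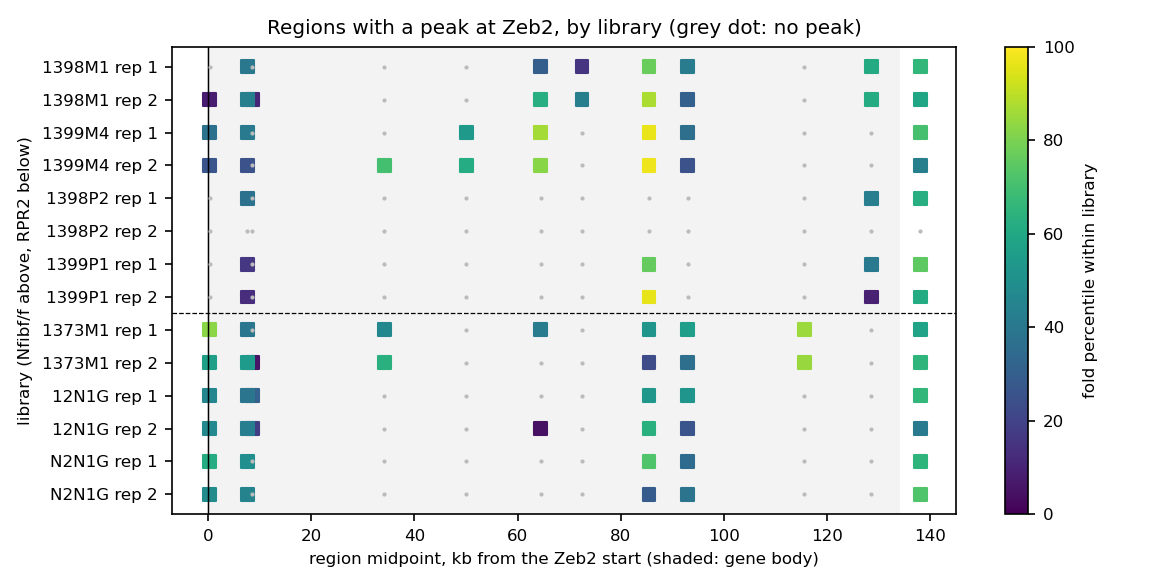
Regions of Zeb2 (x axis, distance of the region midpoint from the outermost start in kb) in each library (rows, Nfibf/f above RPR2), coloured by fold percentile, with a grey dot where the library has no peak. The region at the outermost start is filled in 3 Nfibf/f libraries, of 1398M1 and 1399M4, and in all 6 RPR2 libraries.

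The Zeb2 regions separated the lung tumor lines from the liver metastasis lines within the Nfibf/f genotype. So did the scaled numbers at Cdh2 and, in the opposite direction, at Zeb1. With 2 lines against 2 a full separation arises easily, and its share over all genes was not computed. At Zeb2 the scaled number was 7.9 in 1398M1 and 7.09 in 1399M4, from liver metastases, and 1.85 in 1398P2 and 3.53 in 1399P1, from lung tumors. The RPR2 lines had 8.09 in 1373M1, 6.51 in 12N1G and 5.02 in N2N1G. The region at 45023936 to 45024993 had a peak in all 4 liver and none of the 4 lung Nfibf/f libraries, and in 6 of 6 RPR2 libraries. In the other direction between genotypes, the region at 44988447 to 44989385 had a peak in 5 of 8 Nfibf/f and 0 of 6 RPR2 libraries. The choice of the 10 genes did not use the contrast of liver metastasis and lung tumor, so it was tested with limma over the 6977 genes whose mean reached 3 regions. The log2 difference of liver metastasis minus lung tumor was 1.38 ± 0.27 (SE) at Zeb2, with an adjusted p of 0.232 by limma, both liver lines being above both lung lines, and it did not pass the threshold of 0.05. Replicate 2 of 1398P2 had no Zeb2 region and replicate 1 had 3, and the difference was 0.99 without this line.

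At the other 5 members that could be tested, the log2 difference of liver metastasis minus lung tumor was -0.42 at Zeb1, 0.55 at Cdh2, 0.10 at Ovol1, -0.13 at Grhl2 and -0.005 at Cdh1, with limma adjusted p-values of 0.767 to 0.999. None of the 6 members tested was called, and 0.1% of all genes tested were (7 of 6977, with 447 at an unadjusted p under 0.05). Esrp1, Esrp2, Snai2 and Vim had a mean under 3 regions and were not tested. For Cdh1 the direction changed with the settings, and the values did not separate the tissues.

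**Figure D4:**
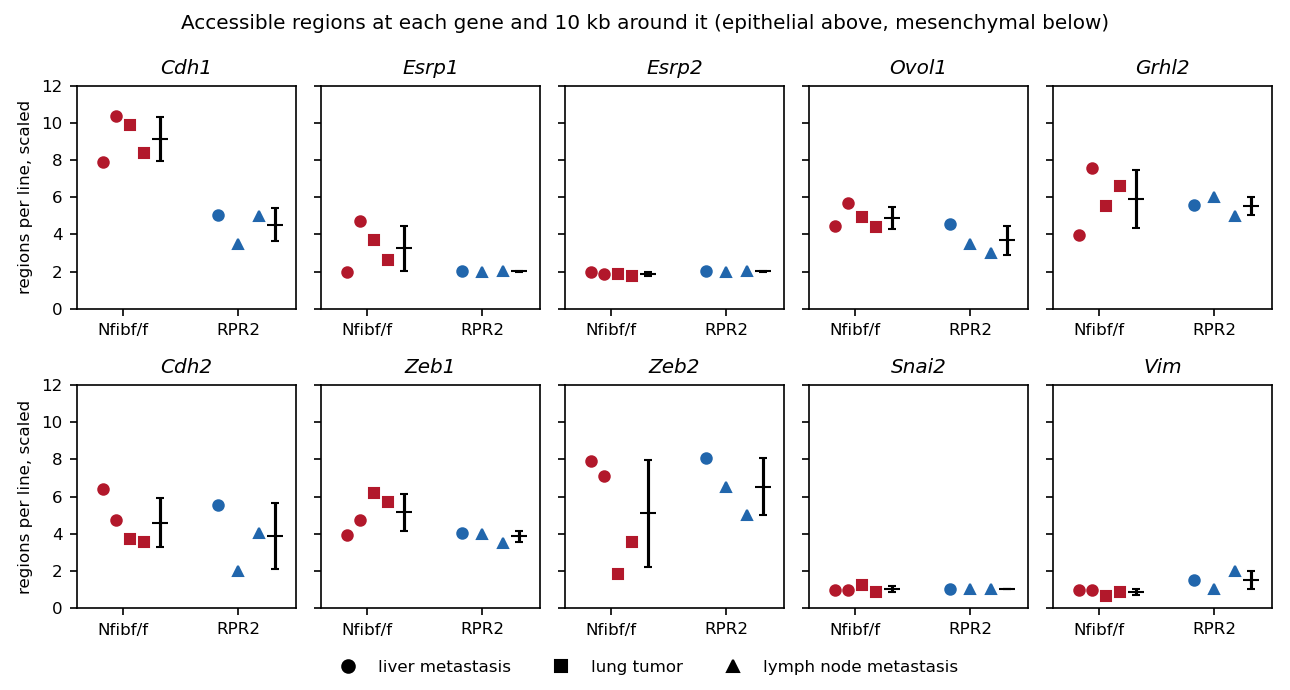
Scaled number of open regions per line at each gene and 10 kb around it (y axis), with a point for each line (shape for the tissue) and the mean ± SD beside them. The 4 Nfibf/f lines stand above the 3 RPR2 lines at Cdh1. Within Nfibf/f, the liver metastasis lines stand above the lung tumor lines at Zeb2 and Cdh2 and below them at Zeb1.

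Set side by side, the 5 epithelial genes averaged 4.05 regions for 1398M1, 6.05 for 1399M4, 5.19 for 1398P2 and 4.76 for 1399P1, against 3.84 in 1373M1, 3.4 in 12N1G and 3.41 in N2N1G. The difference was 1.46 (5.01 ± 0.83 in Nfibf/f and 3.55 ± 0.25 in RPR2 lines; SD, n = 4 and 3). The 5 mesenchymal genes had a mean of 3.34 ± 0.63 in Nfibf/f and 3.35 ± 0.61 in RPR2 lines, a difference of -0.01 whose sign changed with the scaling. The ratio of epithelial to mesenchymal regions was 1 for 1398M1, 1.64 for 1399M4, 1.91 for 1398P2 and 1.64 for 1399P1, against 0.95 in 1373M1, 1.17 in 12N1G and 1.1 in N2N1G. Line 1398M1 stood among the RPR2 lines on this ratio. Cdh1 had the largest difference of the 5 epithelial genes, 4.61, and the other 4 had -0.14 to 1.25. The difference of the epithelial mean thus rests in large part on Cdh1, which was chosen on this contrast. Among the mesenchymal genes the differences ran from -1.45 at Zeb2 to 1.29 at Zeb1, so their mean joins opposite directions. Of the 6 members with a mean of 3 regions or more, Cdh1 was the 1 gene with every Nfibf/f line above every RPR2 line, and none had every Nfibf/f line below. Under that mean, Esrp2 (1.87 in Nfibf/f against 2.01 in RPR2 lines) and Vim (0.86 against 1.51) had every Nfibf/f line below. Unscaled, lines of both genotypes tied at each of these genes. Among all genes tested, 8.79% had every Nfibf/f line above and 11.6% every Nfibf/f line below, so such a pattern is common and, at genes chosen on this contrast, is read no further.

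No region of the 10 genes was specific to a genotype, that is, open in every line of one and closed in every line of the other, and 1.85% of all regions were. A peak was missing from all RPR2 libraries in 21 of the 72 open regions (12 of 38 epithelial and 9 of 34 mesenchymal), against 24.4% of all open regions. It was missing from all Nfibf/f libraries in 7 of 72 (3 of 38 and 4 of 34), against 12.1% of all. These shares lie near those of all regions.

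The miR-200 loci split the lines in the way of the Esrp1 start. At the Mir200b, Mir200a and Mir429 locus, regions at 156055035 to 156055728, which overlaps the Mir200b hairpin, and at 156058966 to 156060290, upstream of it, had peaks in all 6 libraries of 1399M4, 1398P2 and 1399P1. No library of 1398M1 or of the RPR2 lines had a peak in either. In the region over the hairpin the fold percentiles were low, 0.588 to 11.6, with heights of 32.5 to 123. The height in the upstream region was 144 and 126 in 1399M4, 257 and 92.7 in 1398P2 and 148 and 99.7 in 1399P1. At the Mir200c and Mir141 locus, a region over the Mir200c hairpin (124718049 to 124719760) had peaks in the same 6 libraries and no other, with heights of 71 and 105, 103 and 29.6, and 110 and 79.5 in the same order of lines. Over the whole genome 674 of 119359 open regions had this pattern, 0.565%. Other regions near both loci were open in all 14 libraries, among them those at 156050380 to 156051038 and at 124711795 to 124712968.

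The wider epithelial list held 40 genes of junctions, keratins and epithelial identity, and 20 of them had enough regions to test. This list and the mesenchymal list below were chosen with earlier results of these data known. Their p-values and counts between genotypes are therefore not independent of that choice and are given as a description. Between genotypes 1 rose in Nfibf/f lines and none fell, against 0.975% and 0.43% of all genes tested. The log2 difference was positive for 15 of 20, with a list median of 0.23, and 8 of 20 had an unadjusted p under 0.05. Over all 6977 genes tested it was positive for 3302, with a median of -0.0006, and 1522 had an unadjusted p under 0.05. The gene called was Krt7, a keratin of simple epithelia. It had 6.42, 7.09, 6.17 and 6.17 scaled regions in 1398M1, 1399M4, 1398P2 and 1399P1, against 2.02, 2.5 and 3.51 in 1373M1, 12N1G and N2N1G. The log2 difference was 1.16 ± 0.17 (SE), with a limma adjusted p of 0.0224, and its start had a peak in 8 of 8 Nfibf/f and 0 of 6 RPR2 libraries. This call was lost without replicate 1 of 1398P2 (1.09, adjusted p = 0.159), without line 1398P2, 1399P1 or 12N1G (adjusted p = 0.0728, 0.0579 and 0.107), with the lymph node lines averaged and with a 2 kb flank.

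The next genes of the list by p did not pass. The tight junction gene Ocln had 4.97 ± 1.26 regions in Nfibf/f and 3.02 ± 0.5 in RPR2 lines (a log2 difference of 0.62 with a limma adjusted p of 0.109), and Marveld3, of the same family, 4.31 ± 0.66 and 2.85 ± 0.58 (0.53, adjusted p = 0.112). Spint2, an inhibitor of membrane proteases, had 4.31 ± 1.59 and 2.52 ± 0.52 (0.64, adjusted p = 0.173). Between liver metastasis and lung tumor, none of the 20 was called. Among those with small p-values were the junction genes Dsg2 (-0.62), Dsp (-0.48) and Cdh3 (-0.50), given as log2 differences of liver minus lung, with limma adjusted p-values of 0.666 to 0.818.

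The mesenchymal list held 30 genes, and 10 were tested. None was called by limma in either comparison. Between genotypes the log2 difference was positive for 3 of 10, with a median of -0.11, and 3 of 10 had an unadjusted p under 0.05, beside the 1522 of 6977 over all genes. The growth factor gene Tgfb2, a known inducer of the mesenchymal state, had 2.96, 1.42, 1.23 and 3.53 regions in 1398M1, 1399M4, 1398P2 and 1399P1, against 5.06, 8.01 and 7.53 in 1373M1, 12N1G and N2N1G. The groups did not overlap, and 11.6% of all genes tested likewise had every Nfibf/f line below every RPR2 line. The log2 difference was -1.47 ± 0.31 (SE, limma adjusted p = 0.0521). It passed without line 1373M1 (-1.67, adjusted p = 0.0242). The bHLH factor gene Tcf4 had 13.9 ± 2.31 and 18.4 ± 0.67 regions (adjusted p = 0.174), the receptor gene Tgfbr2 2.3 ± 1.33 and 5.02 ± 1.48 (adjusted p = 0.187) and the integrin gene Itga5 3.71 ± 0.57 and 2.69 ± 2.5 (adjusted p = 0.375), Nfibf/f before RPR2 lines. In the tissue contrast the smallest p was at the collagen cross-linking gene Loxl2, with 4.44 and 4.25 regions in the Nfibf/f liver lines and 1.85 and 1.76 in the lung lines (log2 difference 1.07, limma adjusted p = 0.176), followed by Tcf4 (0.36), Mmp14 (-0.35) and Tgfb1 (0.26), with adjusted p-values of 0.801 to 0.866.

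Presence of a start peak separated the lines further than the number of regions. Of the 40 epithelial genes, 29 had a start in the RefSeq promoter table. A peak was present at 28 and 28 of these starts in 1399M4, 28 and 27 in 1398P2 and 28 and 28 in 1399P1. It was present at 20 and 20 in 1398M1, against 20 and 16 in 1373M1, 20 and 18 in 12N1G and 19 and 20 in N2N1G. Over all 17491 genes with such a start the share was 51.3% to 62.9% in Nfibf/f and 57.9% to 61.1% in RPR2 libraries. The 3 Nfibf/f lines other than 1398M1 thus had nearly every epithelial start open, 1398M1 had the number of the RPR2 lines, and replicate 2 of 1398P2, with the fewest peaks, lost 1 start. Of 20 mesenchymal starts, 3 to 10 had a peak in Nfibf/f and 5 to 9 in RPR2 libraries, with no such split.

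**Figure D5:**
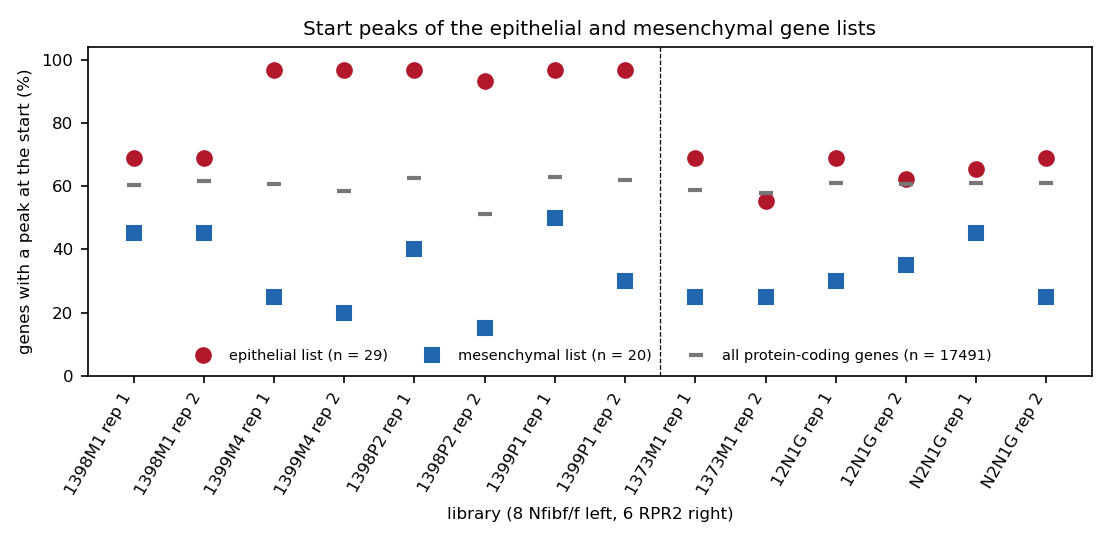
Percent of genes with a peak at the start in each library (x axis) for the epithelial list (29 genes), the mesenchymal list (20 genes) and all 17491 protein-coding genes with a start in the table. The epithelial list stands at 93.1% or more in the libraries of 1399M4, 1398P2 and 1399P1 and at 69% or less in the other 8.

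At 6 epithelial starts a peak was present in every library of 1399M4, 1398P2 and 1399P1 and in no library of 1398M1 or of the RPR2 lines, a pattern chosen after its values were seen. They were those of Cldn7, a claudin of tight junctions, Crb3, a protein of apical polarity, the keratin Krt8, the membrane trafficking genes Rab25 and Ap1m2, and the mucin Muc1. Over all genes 28 of 17491 starts had this pattern, 0.16%, and no mesenchymal start did. The core E-box of the ZEB and SNAI repressors, CACCTG on either strand, stood in a window of all 6. A gene with several starts counted, for peak and motif alike, if any of its windows did. It was found for 21 of the 29 epithelial genes (72.4%), 2 of the 20 mesenchymal genes (10%), 23 of the 28 genes with the pattern (82.1%) and 22.1% of all 17491 genes. The windows of Crb3, Cldn7 and Rab25 are shown with these letters in capitals (RefSeq, GRCm38.p6, 5′ to 3′ on the strand of the gene).
Crb3, chr17:57061951-57062250, plus strand: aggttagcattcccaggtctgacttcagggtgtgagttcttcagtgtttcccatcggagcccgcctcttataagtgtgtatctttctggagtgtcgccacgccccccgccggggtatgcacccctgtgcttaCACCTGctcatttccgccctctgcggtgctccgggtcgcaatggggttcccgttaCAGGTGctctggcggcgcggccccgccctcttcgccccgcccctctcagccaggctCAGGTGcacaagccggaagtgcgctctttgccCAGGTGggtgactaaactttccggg
Cldn7, chr11:69965171-69965470, plus strand: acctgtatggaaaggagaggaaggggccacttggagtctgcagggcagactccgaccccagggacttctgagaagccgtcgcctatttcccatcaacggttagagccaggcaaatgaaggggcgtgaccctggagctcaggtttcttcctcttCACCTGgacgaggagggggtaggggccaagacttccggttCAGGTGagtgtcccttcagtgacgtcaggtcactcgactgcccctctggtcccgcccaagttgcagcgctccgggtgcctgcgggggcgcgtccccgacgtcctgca
Rab25, chr3:88548230-88548529, minus strand: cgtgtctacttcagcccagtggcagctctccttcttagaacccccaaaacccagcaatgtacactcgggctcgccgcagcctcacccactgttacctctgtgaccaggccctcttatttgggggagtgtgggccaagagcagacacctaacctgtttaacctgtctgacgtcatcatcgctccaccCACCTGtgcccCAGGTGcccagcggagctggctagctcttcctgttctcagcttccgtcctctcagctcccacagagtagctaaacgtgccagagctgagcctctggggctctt
The printed window of Crb3 holds 4 such matches, that of Cldn7 2 and that of Rab25 2. The other Cldn7 window of the table (69964529 to 69964828) holds 0. Neither Zeb2 window printed above holds one, and a match is a description of the letters, not a site.

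Local background was taken as the lower 10% quantile over summits within 500 kb of a gene, in multiples of the genome-wide background. It was 1 to 1.69 at Cdh1 in Nfibf/f and 1 to 1.36 in RPR2 libraries. The ranges were 1 to 1.74 and 1 to 1.07 at Esrp1, 1.02 to 1.46 and 1.08 to 1.37 at Esrp2, and 1.01 to 1.9 and 1.64 to 2 at Ovol1. At Zeb2 it was 1 to 1.07 and 1 to 1.05. Its part in the numbers of regions was not tested.

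Around Cdh1, 22 protein-coding genes lay within 500 kb. The difference of Nfibf/f minus RPR2 lines was positive for 13 and negative for 9, with a median of 0.24 scaled regions, against 4.61 at Cdh1. The neighbour Cdh3, the P-cadherin gene 46439 bp upstream, had 3.74 ± 1.18 regions in Nfibf/f and 3.52 ± 0.49 in RPR2 lines. Tango6, 12821 bp downstream, whose window shares regions with that of Cdh1, had 9.54 and 10.9.

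The genes whose numbers over the 7 lines were most like those of Cdh1 were Rps23rg1 (r = 0.99), Pomgnt1 (0.99), Tspan1 (0.99), Urb2 (0.98) and Fntb (0.98), as Pearson r on the log2 scale. The points are 7 lines of the same libraries, Pomgnt1 and Tspan1 lie beside each other on chromosome 4 and share regions, and 182 of 6976 genes had an r above 0.9. Among the members, r with Cdh1 was 0.79 at Ovol1, 0.69 at Zeb1, 0.46 at Cdh2, 0.20 at Grhl2 and -0.41 at Zeb2.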

How the data were processed

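Accessible chromatin was measured in 14 ATAC-seq libraries of 7 mouse lines, and the line was the replicate. The authors deposited 1 narrowPeak list per library, not pooled. The tools that the submitters' processing notes name are cutadapt 2.10, Bowtie2, Picard, MACS2 and SAMtools, and the builds mm10 and GRCm38. Roles, settings and any shift of reads for the enzyme: not given in the sources used here. Each summit has a fold enrichment, a ratio to local background deposited by the authors, and a -log10 p-value and -log10 q-value deposited by the authors. The score was not used. Some peak names carry another build's name, but peaks overlapped 35.8% to 47% of the GRCm38.p6 start windows and 1.57% to 4.74% of the same windows moved by 100 kb.

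Summits of a peak were joined, and peaks on the autosomes and sex chromosomes merged. Numbers per gene counted the 119359 regions open in at least 1 line, averaged over a line's libraries and scaled by the line's total. A moderated linear model across genes (R 4.3.3, limma 3.58.1, trended prior, Benjamini-Hochberg adjustment, threshold 0.05) fitted log2 of the number plus 0.5, which understates changes at low numbers. Fold and p together gave summit fragments and depth. Of 1192565 summits with a -log10 p under 250, 100% came out whole within 0.02. Where a first solution was not whole, a whole number that gave the p was taken. This share is thus partly fixed by the method and is no independent check. The procedures were tested on simulated data. For the linear model these held sampling noise alone, with no further spread between lines. They do not show how stable the calls are in these lines. Other steps used Python 3.11.15, pandas 2.3.3 and numpy 2.4.6. Total reads were not used, and p-values measure the spread between these lines only.

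Extents and sequences came from RefSeq tables of GRCm38.p6 without exons, so no exon, intron or UTR is assigned. The strand was in the tables for Zeb2 and Vim and is general knowledge for the other 8 members. The members, lists and rules were chosen with earlier results of these data known. Named were all members with every line; of the lists, genes called, then those of smallest p to 4 per list and comparison; the start region and the 2 per member with the largest difference in share of libraries (a few others were chosen after their values were seen); the 5 genes most like Cdh1; and the neighbours of Cdh1. A gene that this rule names is not reported here. Alternatives left out each library or line, averaged the lymph node lines, and changed the q threshold, peak number, overlap, flank, scaling, pseudocount, filter and block; counting all merged regions was added after the data were seen. Replicate numbers did not pair libraries of different lines (correlations of -0.1 to 0.112 over 21 pairs of lines).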

Additional observations from a re-analysis of the deposited data

Results flagged for a closer look

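Among 8 Nfibf/f libraries, replicate 2 of 1398P2 had 33558 peaks and stood far below the other 7 (67745 to 84220). Among 6 RPR2 libraries, replicate 2 of 1373M1 had 65009, below the other 5 (70286 to 72440). Chance marks about 1 in 20 of the 14 groups of values examined this way.

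The pairs 1398M1 with 1398P2 and 1399M4 with 1399P1 moved in opposite directions between liver metastasis and lung tumor at Cdh1 in every library, after each library was scaled by its own total. This difference between the pairs was not tested. Unscaled, the libraries of 1398P2 lay on both sides of those of 1398M1: there were 7 and 9 regions in 1398M1, 11 and 5 in 1398P2, 11 and 11 in 1399M4 and 10 and 9 in 1399P1. The scaled difference of liver metastasis minus lung tumor was -1.77 in 1398M1 and 1398P2 and 2.03 in 1399M4 and 1399P1. The same was seen at Esrp1 (-2.12 and 2.08), at Grhl2 (-1.58 and 0.937) and for the mean of the 5 epithelial genes (-1.18 and 1.29). Unscaled, Esrp1 kept these directions in every library. Grhl2 did not, with 3 and 5 regions in 1398M1, 6 and 3 in 1398P2, 8 and 8 in 1399M4 and 7 and 8 in 1399P1. The unscaled epithelial sums of 1398P2 also lay on both sides of those of 1398M1, so between 1398M1 and 1398P2 the direction at Cdh1, at Grhl2 and for the mean rests on scaling, which raises the library with the fewest peaks. At the Zeb1 start the fold percentile, with 0 for no peak in the window, differed by 25.5 and -22.2. This rests on replicate 2 of 1398P2 and replicate 2 of 1399M4, which had no peak in the window. Both had a peak past the window in the broad region over the start, at percentiles of 30.2 and 59. These 5 came from 22 comparisons of this kind.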

How the results depend on the processing

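The Cdh1 difference of 4.61 stayed positive under all 28 alternatives (3.87 to 5.05 with a library or line left out) and moved beyond the spread of the lines only with equal peak numbers, to 2.47. The epithelial difference of 1.46 ran from 1.14 to 1.79 with one left out, and the mesenchymal from -0.226 to 0.381. Regions specific to a genotype numbered 0, and 0 to 2 with one left out: 2 without line 1398M1 or 1373M1 and 1 without 1398P2 or its replicate 2; 1 with equal peak numbers. The 98 genes called between genotypes became 1 to 444 with one left out: 1 without replicate 1 of 1398P2, 61 without replicate 2 of 1399M4, 33 and 32 without replicate 2 of 12N1G and of N2N1G, 44, 6, 19, 2 and 7 without lines 1399M4, 1398P2, 1399P1, 12N1G and N2N1G, and 444 without 1373M1. They were 2 with the lymph node lines averaged, 24 unscaled, 259 with a mean of at least 1 region, 53 with equal peak numbers and 1 with a 2 kb flank. On 14 libraries they were 354 with the replicate block and 403 without it; libraries of a line are not separate lines. Equal peak numbers also turned the share of calls higher in Nfibf/f, 68 of 98, to 22 of 53. The 7 genes called between liver and lung became 0 to 12 with one left out: 0 without replicate 2 of 1398M1, replicate 1 of 1398P2, replicate 2 of 1399P1 or any of lines 1398M1, 1399M4 and 1399P1, 1 without replicate 2 of 1398P2 and 12 without 12N1G or N2N1G. They were 12 with those lines averaged, 1 unscaled, 4 with a mean of at least 1 region, 4 with all merged regions and 0 with a 2 kb flank, q at most 0.01, equal peak numbers or the line number as a block, and 8 with the replicate block. Krt7 lost its call also unscaled (1.16, adjusted p = 0.0845), and Tgfb2 passed also with pseudocount 1 and without replicate 1 of 1398M1 or 1373M1. In the tissue contrast Cdh1 turned to 0.101 unscaled, 0.00906 with and without the replicate block, 0.0213 with a 2 kb flank and 0.0718 at q at most 0.01, and with one left out ranged from -0.14 to 0.173. Grhl2 turned to 0.052 with equal peak numbers and ranged from -0.574 to 0.287, and Ovol1 from -0.0776 to 0.247. The cause of these changes was not tested. Depth limits every absence, above all in replicate 2 of 1398P2. The reads of the libraries were not used, so deletion, copy number and allele cannot be judged from the peaks.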
